A study of Mus musculus with 4 samples.

Results

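The mouse genes Epgn, Ereg, Areg and Btc lie side by side on chromosome 5 and encode the ligands epigen, epiregulin, amphiregulin and betacellulin of the epidermal growth factor (EGF) family. The 7 regions described here are the peaks reported by the study's open-chromatin assay within the 500 kb that hold these genes. They were chosen by position alone, as the entries of the deposited peak list whose midpoint fell on chromosome 5 between 91400000 and 91900000 of the mm9 genome build. The list held 3190 peaks in all, 171 of them on chromosome 5. The stretch was proposed with its high number of peaks already known, so its count and density are given as a description, with no test.

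Ligands of this family are made as membrane-anchored precursors, and proteases at the cell surface cut them to release the soluble growth factor. The released ligand binds receptors of the ErbB (HER) family on the same or a neighbouring cell. Amphiregulin and epigen act mainly through the EGF receptor, whereas epiregulin and betacellulin also bind ErbB4. Amphiregulin is known in the mammary gland as a mediator of duct growth. Neuregulin 1, which the series title names, belongs to the same family of ErbB ligands but is encoded at another locus.

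The study used cancer cells isolated from MMTV-PyMT mice of FVB strain background, which develop mammary tumours because the mouse mammary tumour virus promoter expresses the polyomavirus middle T antigen. Cells labelled hyperglycemic (HyG) came from MMTV-PyMT/PANIC mice and cells labelled euglycemic (Control) from MMTV-PyMT mice, so mouse line and glucose state cannot be told apart. Per the labels, the cells of both conditions were cultured in DMEM with fetal bovine serum and received no treatment; age and time in culture are not stated there. From each condition 1 FAIRE library and 1 input DNA library were sequenced. FAIRE recovers DNA that stays soluble after formaldehyde crosslinking, and enriches for stretches with few nucleosomes. The single peak list names neither the library its peaks came from nor the control, so a peak may mark open chromatin called against input or a difference called between the conditions. No value below belongs to hyperglycemic or to euglycemic cells, no condition could be compared, and there were no replicates. Read depth is unknown.

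Gene positions are approximate. The genes lie near 91.46 Mb (Epgn), 91.5 Mb (Ereg), 91.57 Mb (Areg) and 91.79 Mb (Btc) of chromosome 5 in mm9. These positions, given to 0.01 Mb, came with the rule that set the stretch and not from an annotation, and they do not say which end of a gene they mark. RefSeq has Btc on the minus strand in GRCm38.p6, and the position given may mark the end of that gene and not its start. Distances of the peaks to the start of Btc may then be larger than those printed, by up to the length of the gene. Distances to genes are therefore in whole kb from those points, with an uncertainty of at least 10 kb, and no peak was assigned to a promoter, exon or intron. In the RefSeq gene order of another build, GRCm38.p6, the protein-coding neighbours are Mthfd2l before Epgn and Parm1 after Btc. A lncRNA, Gm19610, lies between Epgn and Ereg, no gene is listed between Ereg and Areg, and an snRNA, Gm23092, and a lncRNA, Gm19619, lie between Areg and Btc.

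Sequence for the peaks themselves is not shown, since no mm9 sequence was used. The 250 bases before the start of Epgn and of Areg are shown because the pairs of peaks described next lie nearest to the positions given for these genes. A further reason is that these neighbouring ligand genes differ in the motifs and base composition of that stretch. No such sequence was available for Ereg, to which the second pair was nearer with all gene positions moved up by 10 kb. The sequences shown are RefSeq sequences of GRCm38.p6, both from the plus strand and written 5′ to 3′. Capitals mark the matches to the motifs searched.
Epgn: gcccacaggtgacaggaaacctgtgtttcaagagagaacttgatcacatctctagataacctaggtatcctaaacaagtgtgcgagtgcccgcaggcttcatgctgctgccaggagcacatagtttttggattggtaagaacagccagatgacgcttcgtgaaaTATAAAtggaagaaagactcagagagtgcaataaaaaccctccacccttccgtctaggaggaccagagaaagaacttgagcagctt
Areg: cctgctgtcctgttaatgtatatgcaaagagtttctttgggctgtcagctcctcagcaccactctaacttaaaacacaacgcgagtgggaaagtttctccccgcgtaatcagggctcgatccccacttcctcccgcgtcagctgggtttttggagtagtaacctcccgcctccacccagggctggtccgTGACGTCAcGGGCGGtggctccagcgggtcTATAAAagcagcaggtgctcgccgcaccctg
The motifs, searched on both strands, were TGACGTCA (the cAMP response element), TGACTCA (the AP-1 site), TATAAA (the TATA box) and GGGCGG (the GC box). They were picked after the sequences had been seen. In the Areg sequence the cAMP response element began 61 bases before the start, the GC box 52 bases and the TATA box 31 bases before it, and none of these matches overlapped another. In the Epgn sequence 1 match was found, a TATA box 86 bases before the start. Of 32851 mouse promoter windows of this length in the RefSeq table, 1.55% held the cAMP response element, 4.46% the AP-1 site, 12.4% the TATA box and 32.7% the GC box. The Areg sequence held 15 CpG dinucleotides and the Epgn sequence 5, beside a median of 6.0 over all windows. The promoter of Btc, read from the minus strand, held 4 CpG and none of the letters searched. Matches are a description of these letters and not of bound sites.

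The 7 peaks fell into 3 runs, with gaps of at most 50 kb (a distance set after the positions were seen) inside a run and longer ones between runs. The first run was a pair 6 and 7 kb from the Epgn position, on the side of Ereg. The second was a pair between Ereg and Areg, and the third held 3 peaks between Areg and Btc. No peak of the stretch lay between its start and the Epgn position, or between the Btc position and its end. The Epgn position is uncertain by at least 10 kb, so the first pair may lie on either side of that gene. Of the 4 genes, Epgn was the only one with a peak within 10 kb of its position. The nearest peak was 26 kb from the position of Areg, 33 kb from that of Ereg and 78 kb from that of Btc.

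**Figure D1:**
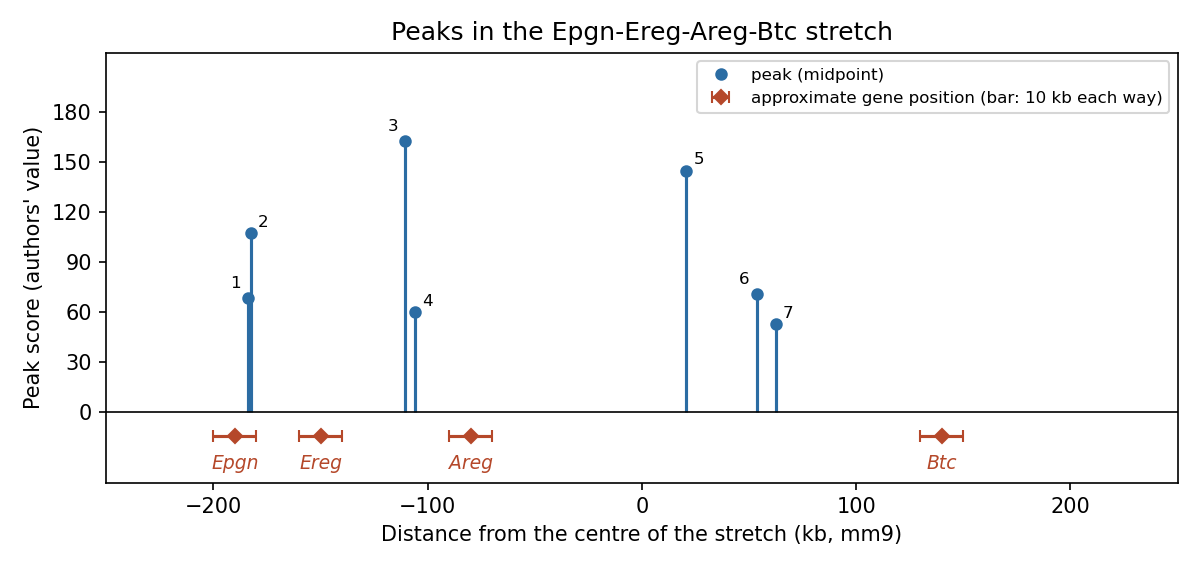
Score of each of the 7 peaks (vertical axis, the authors' value) against the distance of its midpoint from the centre of the stretch in kb (horizontal axis); peaks are numbered from low to high coordinates, and diamonds mark the approximate gene positions with bars of 10 kb each way. The pair beside Epgn, the pair between Ereg and Areg and the 3 peaks between Areg and Btc stand apart, and the right-hand end of the stretch is empty.

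Epigen, the product of Epgn, is an EGF receptor ligand of low affinity. Beside it, peak 1 spanned chr5:91465516-91466372 (857 bp) and had a score of 68.4, the peak caller's own value for that region. Peak 2 spanned chr5:91466539-91468100 (1562 bp) with a score of 107.37. Only 166 bp separated them, and 12 of the 3169 gaps between neighbouring nuclear peaks were that short or shorter. Peak 2 was the widest of the 7 and ranked 35th by width among 3189 nuclear peaks. Joined across the gap, both peaks would cover 2585 bp.

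Between Ereg and Areg, peak 3 spanned chr5:91539159-91539995 (837 bp) and had a score of 162.07. Peak 4 spanned chr5:91543460-91544278 (819 bp) with a score of 60.17, 3.5 kb beyond peak 3. Peak 3 ranked 2nd by score on chromosome 5 and 36th among all nuclear peaks, although its width was close to the list's median of 779 bp. Both peaks lay closer to the Areg position (30 and 26 kb) than to that of Ereg (40 and 44 kb). This order holds only as far as the gene positions do: with all of them moved up by 10 kb, both peaks were nearer to Ereg.

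The third run lay in the longest interval between neighbouring ligand genes, the 220 kb between the positions of Areg and Btc. Peak 5 spanned chr5:91670045-91671303 (1259 bp) with a score of 144.57 and stood 101 kb from Areg and 119 kb from Btc. Peak 6 spanned chr5:91703088-91704049 (962 bp) with a score of 70.53. Peak 7, at chr5:91711767-91712954 (1188 bp), had a score of 52.58, close to the lowest score of the nuclear list, 50.01. Peak 5 was the strong member of this run, ranking 7th by score on chromosome 5, and was the only one of the 7 with no other peak within 10 kb. Peaks 6 and 7 were 7.7 kb apart and lay 86 and 78 kb from the position of Btc, which encodes betacellulin.

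Close spacing was common among the 7 peaks. Of the 6 gaps between neighbouring members, 3 were at most 10 kb (0.2, 3.5 and 7.7 kb), and the others measured 31.8, 71.1 and 125.8 kb. The median gap was 19.8 kb, beside 340.1 kb between neighbouring peaks of chromosome 5. Another peak lay within 10 kb of 6 of the 7 members, a state shared by 29 of the 171 peaks of chromosome 5 (17.0%) and by 12.6% of all nuclear peaks. A stretch picked for holding many peaks must have short gaps, so nothing is read from this count. At a distance of 2 kb the count was 2, the pair beside Epgn.

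Each run held 1 peak with a score above 100 and at least 1 with a score of 70.53 or less. The value 70.53 is the score of peak 6, and 61.4% of nuclear peaks scored lower, whereas 12.1% scored at least 100. A low score in each run is therefore common for this list, and nothing is read from it. Within the pair beside Epgn the scores differed by 38.97, within the pair between Ereg and Areg by 101.9, and between peaks 6 and 7 by 17.95. Over the 208 pairs of neighbouring nuclear peaks at most 10 kb apart, the median difference was 18.9 (quartiles 9.65 and 36.0). The difference between peaks 3 and 4 was the 5th largest of these 208, and that between peaks 1 and 2 ranked 48th. The difference between peaks 6 and 7 was near the median. The score's scale is unknown, so these differences order pairs within this list only.

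**Figure D2:**
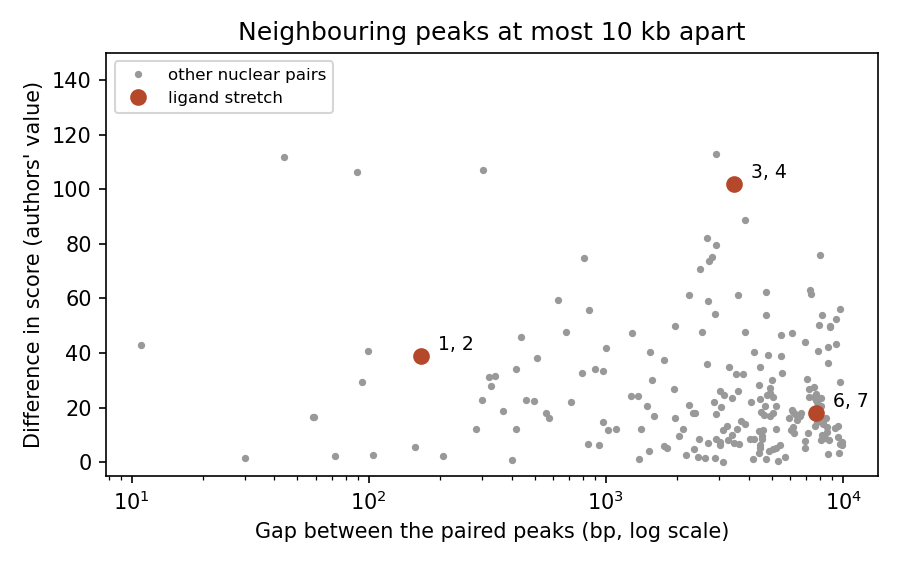
Difference in score (vertical axis, the authors' value) against the gap in bp on a log scale (horizontal axis) for the 208 pairs of neighbouring nuclear peaks at most 10 kb apart. The pair of peaks 3 and 4, with a difference of 101.9, sits among the highest points, whereas peaks 6 and 7, with 17.95, sit near the middle.

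Scores and widths did not enter the rule. The median score of the 7 peaks was 70.53 (range 52.58 to 162.07), beside 61.82 over chromosome 5 and 64.42 over the nuclear list. A score of at least 100 was reached by 3 of the 7 (peaks 2, 3 and 5), beside 12.1% of all nuclear peaks and 20 of the 171 on chromosome 5. These same peaks were the ones in the upper quartile of the list, which begins at 80.99 and holds 25% of the nuclear peaks. The other 4 peaks lay between 52.58 and 70.53, in the bulk of the list.

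The peaks were also on the wide side of this list, some of them only slightly. Every one of the 7, from 819 to 1562 bp, was wider than the list's median of 779 bp, a width that 50% of nuclear peaks reach. The upper quartile of width begins at 921 bp and holds 25.1% of nuclear peaks, and 4 of the 7 peaks (2, 5, 6 and 7) were in it. Peaks 1, 3 and 4 were wider than 64.5%, 60.7% and 57.5% of nuclear peaks. The median width of the 7 peaks was 962 bp, beside 785 bp over chromosome 5. Width did not follow score from peak to peak: peak 3 had the highest score at 837 bp, and peak 7 the lowest at 1188 bp. Peaks of 1 list are not replicates, and no test was made of these counts.

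**Figure D3:**
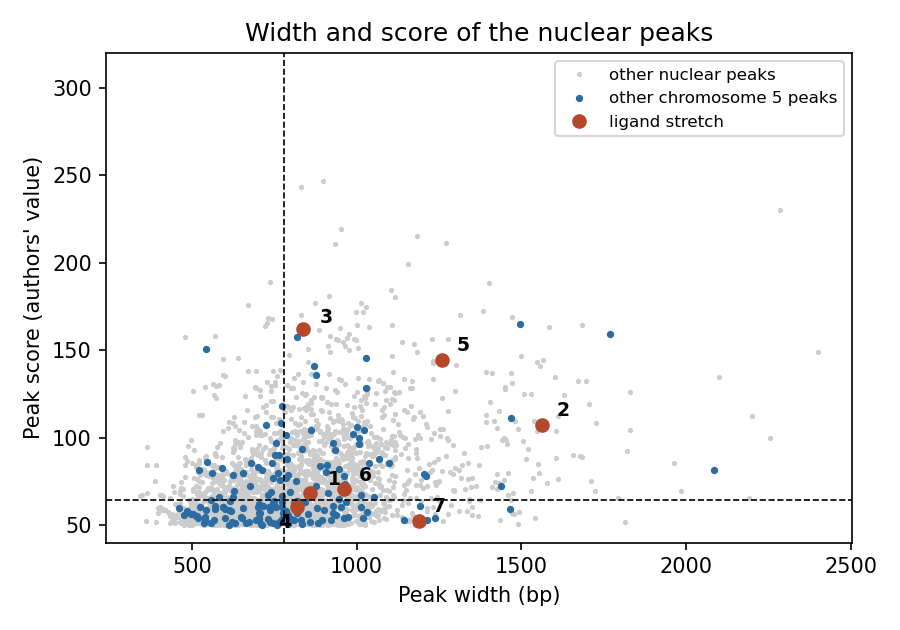
Score (vertical axis, the authors' value) against width in bp (horizontal axis) for the 3189 nuclear peaks; dashed lines mark the list's medians. All 7 peaks of the ligand stretch lie to the right of the median width of 779 bp, and peaks 2, 3 and 5 lie above a score of 100.

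The stretch was then set against equal windows on chromosome 5. Of 297 windows of 500 kb on a grid that holds the stretch as 1 window, 193 (65.0%) held no peak and 69 held 1. The stretch ranked 2nd with 7 peaks, and windows with 7 or more made up 0.673% of the 297. The window with more, 8 peaks, was the one directly before it, from 90900001 to 91400000, and the window directly after it held 1 peak. The stretch held 14.0 peaks per Mb against 1.11 per Mb over the rest of the chromosome's span, a ratio of 12.6 (95% exact binomial interval 4.99 to 26.6). The interval treats peaks as independent counts, which close pairs may not be. It does not allow for the choice of the stretch by its number of peaks, so nothing is read from it. Against the mean of the windows on both sides, 4.5 peaks, the ratio was 1.56, and among peaks in the upper quartile of scores it was 21.4 over the rest of the chromosome. The 7 peaks covered 7484 bp, or 1.5% of the stretch, beside 0.0949% of the span of chromosome 5. Covered length grows with the number of peaks, for which the stretch was picked, so nothing is read from this contrast either.

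**Figure D4:**
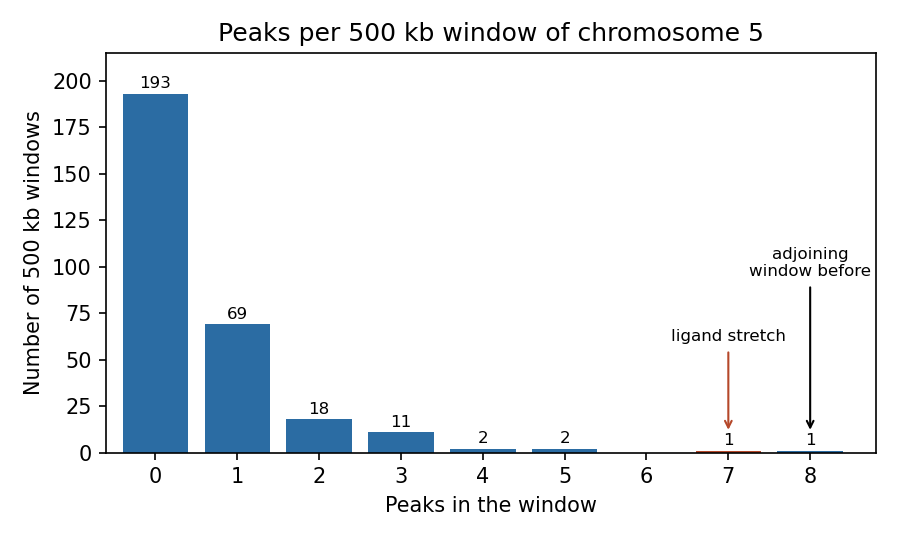
Number of 500 kb windows of chromosome 5 (vertical axis) by the number of peaks they hold (horizontal axis), with the count above each bar. Most windows hold 0 or 1 peak; the ligand stretch, with 7, and the adjoining window before it, with 8, stand at the right-hand end.

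The windows nearest in number of peaks had median scores on both sides of that of the ligand stretch, 70.53. Their values are given side by side with no test, since each window is a single stretch of 1 list. The 500 kb before the stretch had a higher median score (80.53) and a wider median peak (1013.5 bp), but 1 of its 8 peaks scored 100 or more, and its highest score was 111.18. The windows with 5 peaks, from 53400001 and from 73900001, had median scores of 75.48 and 53.08 and highest scores of 85.55 and 93.7. Those with 4, from 13900001 and from 32400001, had medians of 87.97 and 57.41 and reached 117.89 and 79.15. No other window on this grid of chromosome 5 held 3 peaks with a score of at least 100. The windows with at least 3 peaks numbered 17, the ligand stretch included. Of these, 7 had a higher median score than the ligand stretch, 1 had a higher top score and 1 a higher median width. Only windows with at least 3 peaks can hold 3 such scores, and 11 of the 17 held exactly 3 peaks. More peaks also give more chances of a high top score. The stretch was picked for its number of peaks, so nothing is read from its high scores here.

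Across the genome, 5 of 5055 windows of the same grid held more peaks than the ligand stretch and 6 others held as many. The windows with more were chromosome 10 from 110900001 with 9 peaks, and chromosome 10 from 27400001, chromosome 13 from 111400001, chromosome 7 from 77400001 and the window before the stretch with 8 each. Their numbers of peaks with a score of at least 100 were 0, 2, 2, 0 and 1, against 3 in the ligand stretch. In the same order their highest scores were 76.47, 246.65, 132.23, 92.93 and 111.18, against 162.07. Median scores were 56.47, 76.27, 79.87, 63.59 and 80.53, against 70.53, and median widths 957, 839.5, 1061.5, 785.5 and 1013.5 bp, against 962 bp. Their numbers of peaks with another peak within 10 kb ranged from 2 to 6, against 6.

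The edges of the stretch fell in empty sequence. The first member began 65.5 kb inside it and the last ended 187.0 kb before its end, so all 7 peaks lay within 247.4 kb. The peak just outside on the lower side was at chr5:91337719-91338422 (704 bp, score 61.82), 61.6 kb before the bound, with another at chr5:91332099-91332660 (562 bp, score 79.8). On the Btc side the next peak was at chr5:92389025-92389522 (498 bp, score 56.62), 489.0 kb beyond the bound. The gap of 676.1 kb from the last member to that peak was longer than most gaps of chromosome 5, of which 54 of 170 (31.8%) were longer still. The gap of 127.1 kb before the first member was shorter than 65.3% of them. Peaks were thus frequent before Epgn and sparse beyond Btc.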

How the data were processed

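FAIRE DNA and input DNA from cells of 2 conditions were sequenced, giving 4 libraries in all. The submitters' processing notes name MACS as the peak caller and mm9 as the build. How reads were aligned, how the caller was set and which library served as its control are not stated in the sources used here. The authors deposited 1 list with a position and a score per peak; the score's scale is not given, and it was used only to describe and rank peaks within the list. Starts count from 0 in the list and were printed from 1. The mitochondrial peak was left out of comparisons with nuclear peaks.

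Windows were counted by peak midpoint over the part of each chromosome that its outermost peaks bound. Gaps run from the end of one peak to the start of the next. The interval of the density ratio is the exact binomial (Clopper-Pearson) interval. Counting was checked on 20 sets of made-up peaks. The genes named were the 4 of the stretch; every peak in it was described, with the 5 fullest other windows of chromosome 5 and of the genome. Members, lists and windows were chosen with earlier results of these data known. RefSeq tables of GRCm38.p6, which matched all 4 genes by symbol (3 of them in the promoter table), gave gene order, strand and promoter sequence; coordinates of that build were not set against the peaks and are not printed. The tools were scipy 1.17.1, pandas 2.3.3, matplotlib 3.10.9 and numpy 2.4.6 under Python 3.11.15.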

Additional observations from a re-analysis of the deposited data

How the results depend on the processing

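No paired analysis was possible because the peak list holds no values for single libraries, of which every group had 1; leaving out a library was likewise not possible. Fewer peaks under a filter or after merging follow from the alternative itself: 3 peaks of the ligand stretch were left at scores in the upper quartile and 4 after merging within 10 kb. The density ratio of 12.6 rose to 20.4 at scores at or above the list median and to 21.4 in the upper quartile. It fell to 7.83 after merging within 10 kb and to 4.4 when only windows of chromosome 5 with at least 1 peak were counted, and was 11 after merging within 1 kb and 10.5 against all autosomes. It was 1.56 against the windows on both sides, an alternative chosen after seeing the data. The rank on chromosome 5 was 6 with windows sliding by 100 kb, and 4 of the 5 windows ahead overlapped the stretch. With windows of 1 Mb the rank was 1, but the window ranked was centred on the stretch and also held peaks from before its lower bound. At scores at or above the list median the rank was 1. The rank was 3 after merging within 10 kb, and 3 with windows of 250 kb, taking the better-ranked window of the stretch. Members with another peak within a set distance numbered 2 at 2 kb and 2 at scores at or above the list median. With gene positions moved up by 10 kb, 2 peaks were nearest to Ereg in place of 0, and 1 to Areg in place of 3. The median score was 88.95 and the median width 1075 bp after merging within 1 kb. Unknown depth limits what the list can say of regions below the caller's threshold.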

Other observations

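The peak-rich stretch was not bounded by the ligand genes. Windows of 500 kb that slid by 100 kb along chromosome 5 held most peaks where they took in Epgn together with sequence before it: 11 peaks from 91100001 to 91600000 and 11 from 91300001 to 91800000, against 7 in the ligand stretch. In the GRCm38.p6 gene order, Mthfd2l and, before it, the chemokine gene Cxcl2 precede Epgn. Which of these peaks lies at which of those genes was not analysed here.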
